A study of Mus musculus with 1505 samples.

Results

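The subject is L5 IT_1, a transcriptomic type (t-type) of layer 5 intratelencephalic (IT) pyramidal neuron in mouse primary motor cortex. Its members were found by label alone, as the cells recorded at 25 °C whose t-type is exactly L5 IT_1. They number 61 of the 1320 cells at that temperature and 61 of the 253 IT cells among them. The other IT cells were grouped by the layer in the name of their t-type into 87 L2/3 IT cells, 54 L4/5 IT cells, 16 cells of other L5 IT types (L5 IT_2, L5 IT_3 and L5 IT_4) and 35 L6 IT cells, which together make up the 192 cells called all other IT. For checks of identity, 48 layer 5 extratelencephalic (ET) cells were added, which carry PT in their labels. In Patch-seq a neuron is first recorded with a glass pipette, after which its content is drawn into the pipette and its RNA is sequenced. All cells came from untreated acute slices of adult male and female mice, either C57Bl/6 wild type or carriers of a Cre driver (Viaat, Sst, Vip, Pvalb, Npy, Vipr2, Slc17a8 or Gnb4) with the Ai9 reporter. The nucleus was usually drawn up with the cytoplasm, but not in every cell. The labels give neither the mouse line, sex or age of a cell nor its animal. Cells of 1 animal share their source and the animals cannot be told apart here, so each group was treated as 1 sample and no test across animals was run. The intervals given are exact, at 95%. Those of summed levels cover counting error only, with each read taken as an independent count. Those of shares of cells take each cell as independent, although cells can share an animal or a day. Neither kind covers copies made by PCR or differences between animals or recording days.

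IT neurons are excitatory cells that send axons within the telencephalon, to other cortical areas, to the opposite hemisphere and to the striatum, whereas ET neurons of layer 5 reach the brainstem and spinal cord. In motor cortex IT types form a sequence through the depth of the cortex, and layer 5 holds IT and ET cells side by side. Fezf2 encodes a zinc finger transcription factor known for directing the ET fate, Etv1 encodes an ETS transcription factor used as a marker of layer 5, and Slc17a7 encodes the vesicular glutamate transporter VGLUT1.

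Between 1 and 5 L5 IT_1 cells came from a recording day (median 1, 37 days in all). The dates in the labels were split at the start of the last calendar year. This put 9 L5 IT_1 cells into a later period and 52 into an earlier one, and 79 and 113 of all other IT cells. The 79 later cells were 13 L2/3, 26 L4/5, 5 other L5 and 35 L6 IT cells. The 113 earlier ones were 74, 28, 11 and 0 in the same order. When ratios to all other IT differ between periods, period and layer mix therefore cannot be told apart. The L5 IT_1 cells held 36211 to 18172944 exonic reads (median 1125610), and the 3 deepest cells contributed 30.9% of the summed reads. No pair of columns was identical. A median of 8932 genes had an exonic read in L5 IT_1 cells, against 7471 in all other IT cells. After each cell was thinned to 200000 exonic reads, which left out 2 L5 IT_1 cells and 11 other IT cells, the medians were 7493 genes in L5 IT_1 and 6434 genes in all other IT. Levels are exonic reads scaled to CPM (reads per 1e6 exonic reads of the cell or group), taken from reads summed over the cells of a group unless single cells are named. Each ratio is the log2 of L5 IT_1 over the named group, with 1 CPM added to both. A gene is called higher or lower where this ratio lies beyond 1 and the gene reached at least 10 CPM in either group. The authors assigned the t-types from the same RNA, so levels of type markers are a description of the labelled cells and not an independent check of them.

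The marker genes of the type were present. Slc17a7 spanned 0 to 1983 CPM over the 61 L5 IT_1 cells with a median of 314 CPM, and 59 of them held a read. Its summed level was 423 CPM in L5 IT_1, against 463 CPM in L2/3 IT, 562 CPM in L4/5 IT, 417 CPM in other L5 IT and 893 CPM in L6 IT. Only the ratio to L6 IT, -1.08, lay beyond 1, and it came to -0.70 in the later period. By this marker the cells were glutamatergic, and no group other than L6 IT was called.

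Fezf2 was called higher in L5 IT_1 than in each of the other IT groups. Single L5 IT_1 cells held 0 to 521 CPM of Fezf2 (median 124), and 50 of 61 had a read. The summed level was 112 CPM (interval 110 to 114) in L5 IT_1, against 18.6 CPM (18.1 to 19.1) in all other IT, a log2 ratio of 2.53. By layer it was 3.30 CPM in L2/3 IT, 36.9 CPM in L4/5 IT, 20.02 CPM in other L5 IT and 16.1 CPM in L6 IT. Most cells of L2/3, L4/5 and L6 IT had no read. The highest cells of these groups held 122, 175 and 535 CPM, so single cells overlapped. In other L5 IT, 5 of 13 thinned cells had a Fezf2 read, and the highest cell held 417 CPM. In thinned cells a Fezf2 read was found in 78% of L5 IT_1 cells (interval 65.3 to 87.7), against 18.2% of all other IT cells (12.9 to 24.6). On 19 of 24 recording days that held both, the L5 IT_1 cells had the higher level. The order of types was L5 IT_1, L4/5 IT_2 with 60.1 CPM, L5 IT_2 with 47.3 CPM, L6 IT_1 with 39.8 CPM, which came from 2 of its 10 cells, and then the rest with at most 8.86 CPM. The ratio to all other IT was 1.87 in the later period and 2.04 in the earlier one, both below the pooled value, and the ratio to L4/5 IT was 2.03 in the later period and 0.62 in the earlier one.

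Etv1 placed L5 IT_1 beside the L4/5 IT cells rather than above them. Single L5 IT_1 cells held 0 to 1333 CPM (median 71), with a read in 51 of 61. The summed level was 133 CPM in L5 IT_1, against 27.5 CPM in L2/3 IT, 138 CPM in L4/5 IT, 19.5 CPM in other L5 IT and 10.3 CPM in L6 IT. The ratios were 2.23, -0.05, 2.71 and 3.56 in the same order. The L4/5 cells were themselves divided for Etv1, with 212 CPM in L4/5 IT_2 but 20.2 CPM in L4/5 IT_1, and L5 IT_1 lay between these types. The ratio to L4/5 IT was 1.75 in the later period and -1.17 in the earlier one, and neither direction of Etv1 between these groups can be read from the pooled value. Against all other IT the ratio was 1.14 over all cells, 2.5 in the later period and 0.34 in the earlier one.

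**Figure D1:**
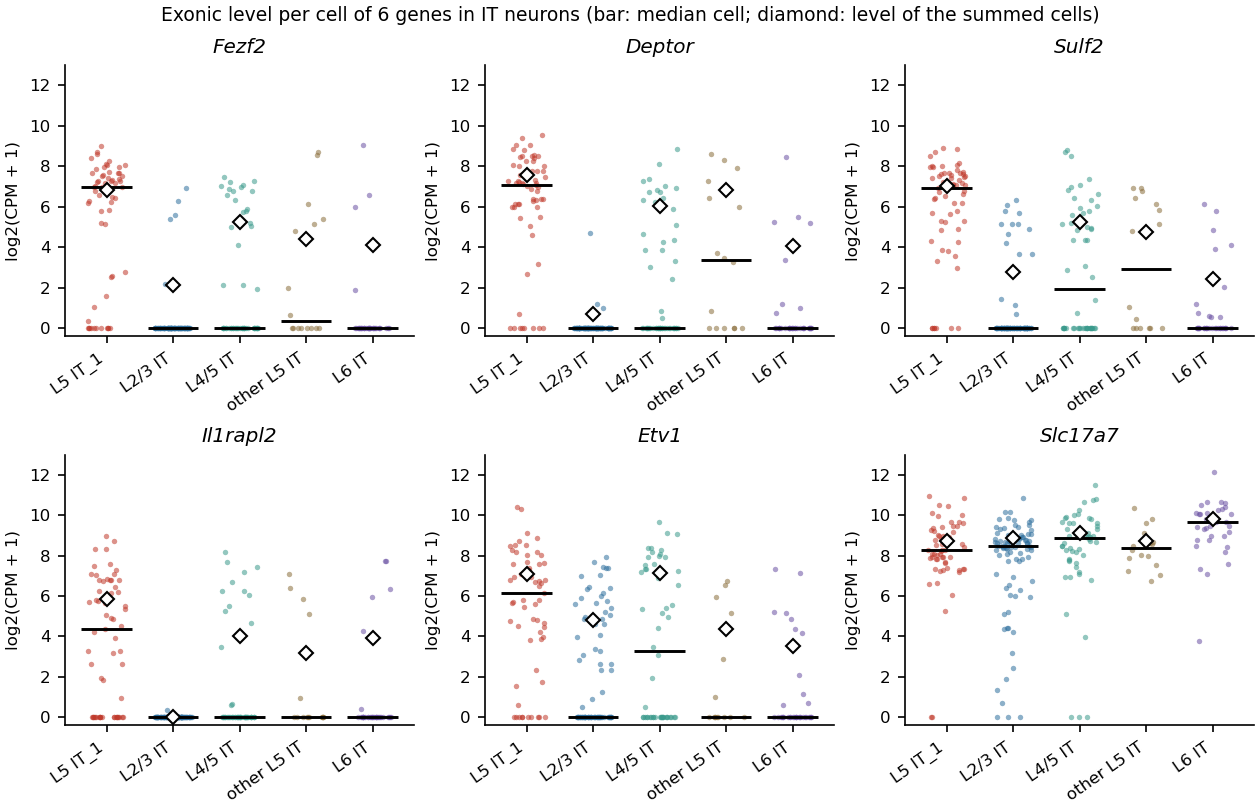
Exonic level of 6 genes in each cell, as log2(CPM + 1) on a linear axis, in L5 IT_1 and in the 4 layer groups of other IT cells. Each point is 1 cell, the bar is the median cell and the diamond the level of the summed cells. Most L5 IT_1 cells hold reads of Fezf2, Deptor and Sulf2 (50, 53 and 54 of 61), most L2/3 and L6 IT cells hold none, and Slc17a7 is spread over a similar range in all groups.

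Deptor and Sulf2 were likewise read in most L5 IT_1 cells and in few L2/3 and L6 IT cells. They were not particular to L5 IT_1, since part of the L4/5 IT and other L5 IT cells held reads too. Single cells of these groups reached 455.9 and 390.5 CPM of Deptor and 453 and 120 CPM of Sulf2. Deptor encodes an inhibitor of mTOR kinase signalling. Its level in single L5 IT_1 cells was 0 to 749 CPM (median 132), with a read in 53 of 61, and its summed level was 190 CPM in L5 IT_1, against 0.634 CPM in L2/3 IT, 65.1 CPM in L4/5 IT, 113 CPM in other L5 IT and 15.8 CPM in L6 IT. The ratio was 6.87 to L2/3 IT, 1.53 to L4/5 IT, 3.51 to L6 IT and 0.74 to other L5 IT, where L5 IT_2 had 205 CPM from 7 cells (median cell 9.86 CPM). To L4/5 IT it was 0.68 in the later period, under the threshold, and 2.59 in the earlier one, and to L6 IT 3.04 in the later period. Sulf2, which encodes a sulfatase that removes sulfate groups from heparan sulfate outside the cell, held 0 to 472 CPM in single L5 IT_1 cells (median 119), with a read in 54 of 61. Summed, it was 131 CPM in L5 IT_1, against 5.86 CPM in L2/3 IT, 37.4 CPM in L4/5 IT, 25.5 CPM in other L5 IT and 4.30 CPM in L6 IT. Its ratio to all other IT was 2.81 over all cells, 3.26 in the later period and 2.37 in the earlier one. In thinned cells, Deptor and Sulf2 each had a read in 88.1% of L5 IT_1 cells (interval 77.1 to 95.1), against 19.9% and 26% of all other IT cells.

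The 4 genes were read together in most L5 IT_1 cells. Of 59 thinned cells, 36 had a read of each of Fezf2, Etv1, Deptor and Sulf2, 12 had reads of 3 of them, 7 of 2, 3 of 1, and 1 cell had none. The count was made in L5 IT_1 alone, so it cannot show whether joint reads set the type apart from other groups. Fezf2, Deptor and Sulf2 are also among the leading higher genes named below. The rule for those genes asked for a read in a minimum share of L5 IT_1 cells, so joint reads are partly built into the choice.

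The stretches before the annotated starts of Fezf2, Sulf2 and Etv1 are given here because these genes carry the description of the type. They are 250 bases on the strand of the gene, 5′ to 3′, from RefSeq on GRCm38.p6. Fezf2 lies on chr14:12345866-12346115, minus strand, and its RefSeq start falls inside the gene as annotated by Gencode (12342094 to 12348189). Sulf2 has a pair of starts, of which the outer one is shown (chr2:166155684-166155933, minus strand), and so has Etv1, of which the inner one is shown (chr12:38783461-38783710, plus strand). Deptor had no entry. Capitals mark 3 motifs searched on both strands. The TATA box is TATAAA, the CCAAT box is CCAAT. An E-box of the form CAGATG was the third, and none of the marked letters overlap.
Fezf2: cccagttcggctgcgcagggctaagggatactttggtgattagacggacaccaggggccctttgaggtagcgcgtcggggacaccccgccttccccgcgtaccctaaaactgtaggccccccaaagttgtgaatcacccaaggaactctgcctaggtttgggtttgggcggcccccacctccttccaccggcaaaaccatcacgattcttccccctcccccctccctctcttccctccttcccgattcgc
Sulf2: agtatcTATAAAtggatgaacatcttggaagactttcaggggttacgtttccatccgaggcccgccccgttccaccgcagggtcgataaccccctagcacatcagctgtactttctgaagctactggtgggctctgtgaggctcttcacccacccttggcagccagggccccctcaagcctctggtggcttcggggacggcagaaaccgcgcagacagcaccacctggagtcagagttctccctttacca
Etv1: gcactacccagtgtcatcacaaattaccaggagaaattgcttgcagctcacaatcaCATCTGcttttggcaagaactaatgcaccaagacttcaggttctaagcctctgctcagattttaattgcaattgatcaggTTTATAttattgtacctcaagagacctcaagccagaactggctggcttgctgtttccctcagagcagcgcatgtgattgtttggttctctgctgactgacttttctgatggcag
The Fezf2 stretch held none of the motifs, the Sulf2 stretch held the TATA box 1 time, and the Etv1 stretch held the TATA box and the E-box 1 time each, both on the other strand. Of 32851 promoter stretches of that length, 12.37% held the TATA box, 33.85% the CCAAT box and 14.44% the E-box on either strand. The other start of Sulf2 held the CCAAT box 1 time and the other start of Etv1 none of them. In both genes the start shown is thus the one with the TATAAA match. Matches were counted at any position of a stretch, so they are matches of letters and not mapped promoter elements. The data contain no measurement at these stretches, so they are shown as sequence alone.

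Against all other IT cells, 651 of 11225 compared genes (5.80%) were called higher in L5 IT_1 and 835 (7.44%) lower. The leading 10 genes in each direction were taken by a rule that asked for at least 50 CPM and a read in a share of at least 0.5 of the cells of the higher group, with median cells that differed the same way. Higher in L5 IT_1 were Myl4, Sulf2, Il1rapl2, Fezf2, Tmsb10, Deptor, Coro6, Rxfp2, Ccdc80 and Ttc9b. Among the lower were Calb1, Robo3, Kcnip2, Lamp5, Cux2, Cux1, Kitl, Rasgrf2 and Alcam. Several of the lower genes are known from the upper layers of the cortex, where Cux1 and Cux2 encode homeodomain transcription factors and Calb1 the calcium buffer calbindin.

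Il1rapl2 encodes a synaptic cell surface protein of the interleukin 1 receptor family. In single L5 IT_1 cells it spanned 0 to 498 CPM (median 19.7), and 41 of 61 had a read. Its summed level was 55.8 CPM in L5 IT_1, against 8.76 CPM in all other IT, where 26 of 192 cells had a read and 1 of 87 in L2/3 IT. The ratio was 2.54 over all cells, but 0.81 in the later period and 2.42 in the earlier one. Rxfp2, a receptor for the peptide INSL3, was found in both groups of layer 5 IT cells. It had 67 CPM in L5 IT_1 (single cells 0 to 442, median 21.5), against 143 CPM in other L5 IT. The IT groups of the other layers had at most 5.06 CPM. Rxfp2 was also among the leading genes higher in L5 IT_1 than in L5 ET. Its ratio was 2.12 to all other IT and -1.08 to other L5 IT.

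Other leading genes rested on fewer cells or differed in ratio between the periods. Myl4, a myosin light chain, had 94.2 CPM in L5 IT_1, against 12 CPM in all other IT (ratio 2.87), but the median L5 IT_1 cell held 1.15 CPM and 32 of 61 had a read. Tmsb10, which encodes the actin-binding peptide thymosin beta 10, had 167 CPM, against 28.6 CPM in all other IT, and 34.7% of its L5 IT_1 reads came from 1 cell. Its ratio of 2.5 was 1.08 in the later period and 1.94 in the earlier one. For Coro6, a coronin that binds actin, it was 2.17 over all cells, 1.58 in the later period and 1.79 in the earlier one. Ccdc80 (52.6% of L5 IT_1 reads from 1 cell) and Ttc9b had ratios of -0.33 and -0.87 in the later period, against 3.01 and 1.89 in the earlier one.

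Calb1 had the largest ratio among the lower genes. It was read in 10 of 61 L5 IT_1 cells, with 0 to 94.9 CPM (median 0), and in 134 of 192 other IT cells, with 0 to 2328 CPM (median 57.9). The sums were 5.27 CPM (interval 4.88 to 5.68) in L5 IT_1, against 237 CPM (235 to 239) in all other IT, a ratio of -5.25 that was -3.95 in the later period and -6.03 in the earlier one. The group with the highest level was L2/3 IT with 545 CPM, and Calb1 was also above L5 IT_1 in L6 IT with 90.4 CPM. The ratio of Calb1 to L4/5 IT was -2.94 over all cells, -3.28 in the later period and -0.49 in the earlier one. Robo3, an axon guidance receptor of the Robo family, was read in 13 of 61 L5 IT_1 cells (0 to 74.5 CPM, median 0). It had 5.22 CPM in L5 IT_1, against 121 CPM in L2/3 IT, 22.4 CPM in L4/5 IT, 89.6 CPM in other L5 IT and 143 CPM in L6 IT, and so was called lower against each layer. By type, L4/5 IT_2 (5.49 CPM) and L5 IT_2 (6.62 CPM) were as low as L5 IT_1, and L5 IT_4 had 369 CPM. Its ratio to L6 IT was -4.53 over all cells and -3.88 in the later period, to which all L6 IT cells belong.

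Kcnip2, a subunit of Kv4 potassium channels, was also lower against every layer. It was read in 10 of 61 L5 IT_1 cells and had 9.06 CPM, against 92 CPM in all other IT, with ratios by layer between -2.60 and -3.47. Against L6 IT it was -6.18 in the later period, when 1 of 9 L5 IT_1 cells held a read. A single cell held 66.1% of the L5 IT_1 reads of Kcnip2, and without the 3 deepest L5 IT_1 cells, a setting chosen after seeing the data, its ratio to all other IT was -4.15, against -3.21 with them.

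Cux2, Cux1, Lamp5, Kitl and Rasgrf2 were called lower than in L2/3 IT and not lower than in other L5 IT. Cux2 was read in 11 of 61 L5 IT_1 cells (0 to 122 CPM, median 0), and 1 cell held 68.6% of its reads. The sum was 16 CPM in L5 IT_1, against 249 CPM in L2/3 IT, 94.3 CPM in L4/5 IT, 2.2 CPM in other L5 IT and 1.27 CPM in L6 IT. Without the 3 deepest cells the ratio of Cux2 to all other IT was -4.94, against -2.88 with them. Lamp5, which encodes a membrane protein of neurons, had 45.2 CPM in L5 IT_1, against 787 CPM in L2/3 IT, 296 CPM in L4/5 IT, 39.1 CPM in other L5 IT and 12.7 CPM in L6 IT.

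**Figure D2:**
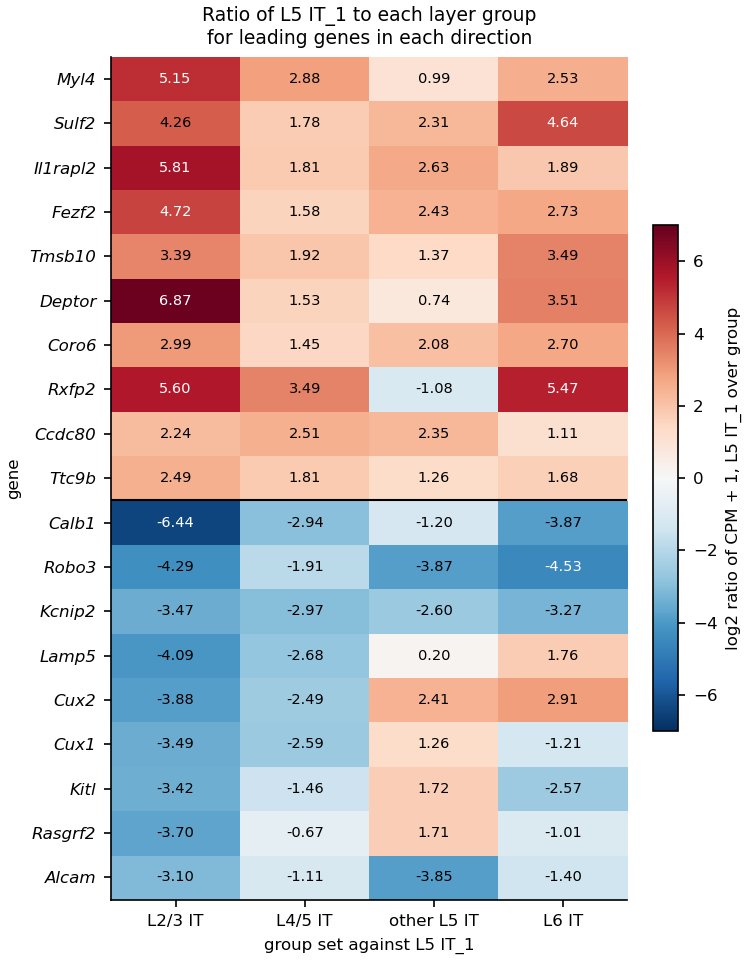
Log2 ratio of CPM + 1, L5 IT_1 over each of the 4 layer groups, for the 10 leading genes higher in L5 IT_1 (above the line) and 9 of the lower ones (below it), as chosen against all other IT cells. Of the higher genes, all but Myl4, Deptor and Rxfp2 are above 1 against each layer. Robo3, Kcnip2, Calb1 and Alcam are below -1 against each layer over all cells. Alcam is at -0.94 against L6 IT in the later period, and Calb1 at -0.49 against L4/5 IT in the earlier one. Rxfp2, Cux2, Cux1, Lamp5, Kitl and Rasgrf2 change sign between layers.

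Against L2/3 IT cells, 1064 of 11306 genes (9.41%) were higher in L5 IT_1 and 1180 (10.4%) lower. Among the higher genes were some that L2/3 IT cells nearly lacked. Hs3st2, a heparan sulfate sulfotransferase, held 0 to 614 CPM in single L5 IT_1 cells (median 131), against 0 to 79.8 CPM in L2/3 IT cells (median 0). The summed levels were 188 CPM in L5 IT_1 and 2.95 CPM in L2/3 IT, a ratio of 5.58. Sstr2, a somatostatin receptor, was read in 36 of 61 L5 IT_1 cells with 110 CPM in all, and in none of 87 L2/3 IT cells. Its ratio was 6.80, and with no L2/3 IT read the size of this ratio depends on the 1 CPM added. Cnih3, an auxiliary subunit of AMPA receptors, had 122 CPM against 2.71 CPM in L2/3 IT, and Sema3e, a secreted semaphorin, 76.8 CPM against 1.71 CPM in L2/3 IT. These 4 genes were also present in L6 IT, at 92.2 CPM or more, so they separated L5 IT_1 from the upper layer and not from the deep one.

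The lower genes against L2/3 IT were led by Calb1, with a ratio of -6.44. Stard8, a GTPase-activating protein, had 1.68 CPM in L5 IT_1, against 108 CPM in L2/3 IT (-5.35). Rgs8, a regulator of G protein signalling, had 2.38 CPM, against 108 CPM in L2/3 IT (-5.01). Col11a1, a fibrillar collagen chain, had 1.02 CPM, 94% of it from 1 cell, against 55.5 CPM in L2/3 IT (-4.80). Within each period these 4 ratios lay between -4.72 and -6.94.

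Against L4/5 IT cells, 1111 of 11251 genes (9.87%) were higher in L5 IT_1 and 1056 (9.39%) lower. With median-of-ratios scaling, which moves the ratios of this comparison by -0.11, the higher genes made up 40% of the called genes, against 51.3% with scaling by total reads. Nrp1, a receptor for class 3 semaphorins, had the largest ratio. It was read in 39 of 61 L5 IT_1 cells (0 to 325 CPM, median 17.1) and in 4 of 54 L4/5 IT cells (0 to 7.32 CPM, median 0). The sums were 64.1 CPM in L5 IT_1 and 0.488 CPM in L4/5 IT, a ratio of 5.45 (6.75 in the later period and 4.61 in the earlier one). Arhgap25, a GTPase-activating protein, had 82.5 CPM, against 4.87 CPM in L4/5 IT (3.83), and Nr4a3, an orphan nuclear receptor of the activity-induced kind, 89.5 CPM, against 16.6 CPM in L4/5 IT (2.36).

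Rorb, the transcription factor gene that marks layer 4, was read in 42 of 61 L5 IT_1 cells, with 0 to 351 CPM (median 14.6), and in 45 of 54 L4/5 IT cells, with 0 to 1545 CPM (median 213). The sums were 48.4 CPM in L5 IT_1 and 270 CPM in L4/5 IT, a ratio of -2.46. L5 IT_1 was in turn above other L5 IT (10.9 CPM) and L6 IT (0.537 CPM) for Rorb, so its level lay between those of the groups. Adam33, a metalloprotease, was lower than in L4/5 IT by a ratio of -5.01, Spock3, a secreted proteoglycan, by -4.14, Cdh8, a cadherin, by -3.02 and Thsd7a, a thrombospondin repeat protein, by -3.02. On recording days with both groups, Spock3 was lower in L5 IT_1 on 13 of 14 and Cdh8 on 13 of 14.

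Against the 16 cells of the other L5 IT types, 2394 of 11235 genes (21.3%) were higher in L5 IT_1 and 1543 (13.7%) lower. The 16 cells are few, and 3 of them held 52.4% of their reads. Median-of-ratios scaling moves these ratios by -0.25 and makes the higher genes 45% of the called ones, against 60.8% with scaling by total reads. Fam3c, a secreted cytokine-like protein, held 0 to 1651 CPM in L5 IT_1 cells (median 49.9), against 0 to 52.3 CPM in other L5 IT cells (median 0). It was read in 44 of 61 L5 IT_1 cells and 7 of 16 other L5 IT cells, and the ratio was 5.11. Coch, the secreted protein cochlin, had 54.4 CPM, against 0.773 CPM in other L5 IT (4.97), Cxxc4, a CXXC zinc finger protein that inhibits Wnt signalling, 60.9 CPM, against 2.56 CPM (4.12), and Gpc6, a glypican, 86.5 CPM, against 6.39 CPM (3.57). In L4/5 IT the 4 genes reached 108, 100, 55.5 and 75.8 CPM in the same order, so they were shared by L5 IT_1 and the cells above it.

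Lower than in the other L5 IT cells were Robo3 (-3.87), Alcam (-3.85), Galnt14 (-3.85), Cdh9 (-3.45) and Chrm2 (-3.43). Cdh9, a classical cadherin, had 6.48 CPM in L5 IT_1, with a read in 11 of 61 cells, against 80.9 CPM in other L5 IT, with a read in 12 of 16. By type it was 33.8 CPM in L5 IT_2, 50.9 CPM in L5 IT_3 and 212 CPM in L5 IT_4, so each was above L5 IT_1. Chrm2, the muscarinic M2 receptor gene, had 3.75 CPM in L5 IT_1 (8 of 61 cells), against 50.3 CPM in other L5 IT (9 of 16 cells). Galnt14, a glycosyltransferase, was at 21.7 CPM in L5 IT_1, against 327 CPM in other L5 IT, and its intronic ratio was -0.93.

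Against L6 IT cells, 1362 of 11220 genes (12.1%) were higher in L5 IT_1 and 1281 (11.4%) lower. All 35 L6 IT cells belong to the later period, as do 9 of the 61 L5 IT_1 cells, and only 1 day held both, so over all cells type and period cannot be told apart in this comparison. The genes named next are therefore given within the later period as well. Gpc6 was read in 43 of 61 L5 IT_1 cells (0 to 732 CPM, median 41) and in 1 of 35 L6 IT cells. Its ratio was 6.24 over all cells and 6.30 within the later period. For Cpne8, a calcium-dependent membrane-binding copine, the ratios were 5.72 and 5.42, for Plxnd1, a semaphorin receptor, 5.63 and 5.11, for Stxbp6, a regulator of SNARE complexes, 5.19 and 5.70, for Sulf2 4.64 and 4.58, and for Adcyap1, which encodes the neuropeptide PACAP, 4.23 and 3.51. Fezf2 and Etv1 had 2.73 and 3.56 over all cells and 1.10 and 3.92 within the later period.

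The genes lower than in L6 IT were found in few L5 IT_1 cells. Sulf1, the companion sulfatase of Sulf2, was read in 6 of 61 L5 IT_1 cells (0 to 60.8 CPM) and in 28 of 35 L6 IT cells (0 to 1423 CPM, median 176). Its sums were 1.01 CPM in L5 IT_1 and 309 CPM in L6 IT, a ratio of -7.27, opposite in direction to Sulf2. Sema5b, a semaphorin, had -6.67, Ptpru, a receptor tyrosine phosphatase, -5.52, Penk, the enkephalin precursor, -5.14, Cdh9 -4.49 and Cdh13 -4.28. Within the later period these ratios were -8.27 for Sulf1, -6.85 for Sema5b, -7.34 for Ptpru, -3.97 for Penk, -4.14 for Cdh9 and -6.62 for Cdh13. Sulf1 had no read in the 9 later L5 IT_1 cells, and Sema5b, Ptpru and Cdh13 were read in 1 of them each, so the size of these ratios depends on the 1 CPM added. Beside these values, 7 of 8 microglia genes were also called higher in L5 IT_1 than in L6 IT, with a summed level of 1035 CPM (single cells 0 to 9224, median 308) against 228 CPM in L6 IT (0 to 5723, median 146). In the later period the list summed to 752 CPM in L5 IT_1, and the ratios of its genes lay between 0.20 (C1qc) and 2.25 (C1qa), except that Tmem119 had no read in the 9 later L5 IT_1 cells. No microglia gene was without a read in either group, and the part of such RNA in the comparison was not tested.

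Gene lists for the layers summarise where L5 IT_1 stood. Of 10 genes of the upper layer IT list, 1 (Lhx2) was higher and 8 lower than in L2/3 IT, where 9.41% and 10.4% of all genes were. Of the 8, Calb1, Otof and Mdga1 were under 10 CPM in L5 IT_1 and passed the filter through L2/3 IT alone, which fixed their direction. Calb1 passed through the other group alone against the other layers too. Against L4/5 IT the list had 1 higher and 3 lower of 8, where 9.87% and 9.39% of all genes were. Against other L5 IT it was 6 higher and 1 lower of 8, where 21.3% and 13.7% of all genes were. Among the 6 was Cux2, most of whose L5 IT_1 reads came from 1 cell, as given above. Against L6 IT the list had 3 higher (Plxnd1, Lhx2 and Cux2) and 3 lower (Calb1, Cux1 and Rasgrf2) of 8. Of all genes 12.1% were higher and 11.4% lower than in L6 IT. The sums of the list were 253 CPM in L5 IT_1 and 238 CPM in L6 IT. The ratio of Cux2 to L6 IT was 2.91 over all cells and -1.12 in the later period. All 4 compared layer 4 genes were lower than in L4/5 IT (Rspo1, Rorb, Whrn and Kcnh5), and all 6 compared layer 6 IT genes were lower than in L6 IT (Sulf1, Oprk1, Penk, Osr1, Rxfp1 and Fst), where 9.39% and 11.4% of all genes were. Rspo1 and Whrn were under 10 CPM in L5 IT_1 and passed the filter through L4/5 IT alone, which fixed their direction. Each of the 6 layer 6 IT genes was under 10 CPM in L5 IT_1 and passed the filter through L6 IT alone, which fixed the direction. In the later period 5 of the 6 had no read in any of the 9 L5 IT_1 cells, and Penk had a ratio of -3.97. Of 7 compared layer 5 IT genes, 4 were higher than in all other IT (Fezf2, Deptor, S100b and Etv1) and 1 lower (Tmem215). Of all genes 5.80% were higher and 7.44% lower. The median ratio of the list was 1.14, against -0.05 over all genes. Fezf2 and Etv1 are also the markers given for the type. Tmem215, read in 5 of 61 L5 IT_1 cells, had 1.15 CPM in L5 IT_1, against 29.9 CPM in all other IT. It passed the filter through all other IT alone, which fixed its direction.

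A score per cell set the upper layer genes against those of layer 6. It is the mean log2(CPM + 1) of the upper layer IT list less that of the layer 6 IT list, in cells thinned to 200000 reads. L5 IT_1 cells had a median of 1.71 (0 to 3.82, quartiles 1.26 and 2.45, n = 59), against 4.22 in L2/3 IT, 2.72 in L4/5 IT, 0.65 in other L5 IT and -0.80 in L6 IT. The median of L5 IT_1 lay below both L4/5 types (3.01 in L4/5 IT_1 and 2.62 in L4/5 IT_2) and above the 3 other L5 IT types (0.65 to 0.72). The cells overlapped, since 18 of 59 L5 IT_1 cells had a score inside the quartiles of L4/5 IT, and 2 each inside those of L2/3, other L5 and L6 IT. The median was 1.19 in the 9 later L5 IT_1 cells and 1.79 in the 50 thinned earlier ones.

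**Figure D3:**
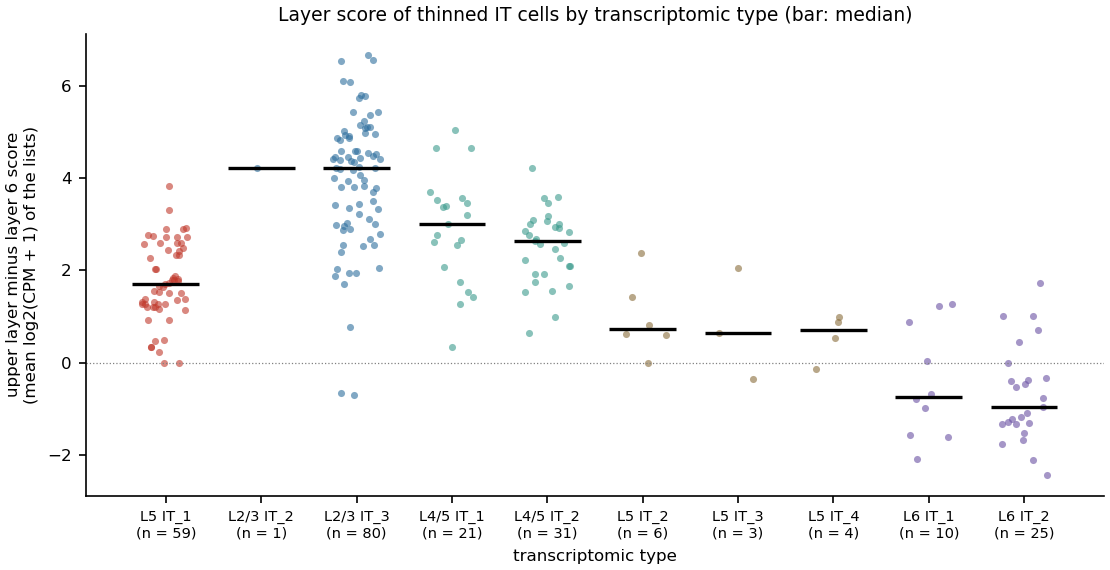
Layer score of each IT cell thinned to 200000 exonic reads, by t-type, with the median as a bar and the number of cells under each type. The vertical axis is the mean log2(CPM + 1) of the upper layer IT list less that of the layer 6 IT list. The median of L5 IT_1 (1.71) lies between those of the L4/5 types (3.01 and 2.62) and those of the other L5 types (0.65 to 0.72).

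Among transcription factor genes, 6 of 35 were higher than in all other IT and 4 lower, where 5.80% and 7.44% of all genes were. Besides Fezf2 and Etv1, the higher ones were Tox, Lhx2, Neurod6 and St18. Tox, an HMG-box factor, held 0 to 446 CPM in L5 IT_1 cells (median 79.7), with a read in 50 of 61. It had 102 CPM in L5 IT_1, against 26.7 CPM in all other IT, a ratio of 1.90, and was below other L5 IT by -0.79. Neurod6, a bHLH factor of pyramidal cells, had 339 CPM in L5 IT_1, against 167 CPM in all other IT. Its ratio of 1.02 was 0.51 in the later period, 0.92 without the 3 deepest L5 IT_1 cells and -0.18 in intronic reads. The lower ones were Cux2, Cux1, Rorb and Zfpm2.

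Over 5 lists of channel genes, 5 of 76 compared genes (6.58%) were higher than in all other IT and 8 (10.5%) lower, beside 5.80% and 7.44% of all genes. Of 8 sodium channel genes, Scn2b and Scn4b, both beta subunits, were higher than in all other IT and Scn3b lower, and the median ratio of the list was 0.02. Scn4b, at 60.4 CPM in L5 IT_1 and 23.4 CPM in all other IT, was read in 22 of 61 L5 IT_1 cells, and 65.7% of the Scn2b reads came from 1 L5 IT_1 cell. In the later period the ratios of Scn2b and Scn4b were 0.42 and 0.14. Of 24 Kv1 to Kv4 channel genes and partners, Kcnip3 was higher and Kcnip2 and Kcnd2 lower. Kcnip2, at 9.06 CPM in L5 IT_1, passed the filter through all other IT alone, which fixed its direction. Kcnip3, which like Kcnip2 encodes a partner of Kv4 channels, held 0 to 1446 CPM in L5 IT_1 cells (median 257), against 0 to 917 CPM in other IT cells (median 44.3). It was higher in L5 IT_1 on 21 of 24 shared days, with a ratio of 1.09 over all cells, 1.21 in the later period and 1.07 in the earlier one. Kcnd2, the pore-forming subunit Kv4.2, had 57.7 CPM in L5 IT_1, against 138 CPM in all other IT (-1.24). The 2 Kv4 partners thus differed in opposite directions. Of 25 other potassium channel genes 2 were higher and 4 lower, of 16 calcium channel genes 0 and 1, and of 3 HCN channel genes none was called.

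Over 6 lists of receptor genes, 5 of 54 compared genes (9.26%) were higher than in all other IT and 9 (16.7%) lower, beside 5.80% and 7.44% of all genes. Of the 9 lower ones, at least Oprk1, Rxfp1 and Chrm2 were under 10 CPM in L5 IT_1. They passed the filter through all other IT alone, which fixed their direction. Of 12 GABA-A receptor subunit genes none was higher than in all other IT and 2 were lower, with a median ratio of -0.55. Gabrb2 had 80.7 CPM in L5 IT_1, against 167 CPM in all other IT (-1.04). Its ratio was -0.80 in the later period, -0.86 in the earlier one, -0.78 without the 3 deepest L5 IT_1 cells and -0.12 in intronic reads, so the call was lost in each. Of 11 ionotropic glutamate receptor genes 1 was higher, Grik3, a kainate receptor subunit read in 53 of 61 L5 IT_1 cells, whose ratio was 1.01 over all cells and -0.66 on the 24 days with both groups. Of 8 acetylcholine receptor genes 2 were higher and 1 lower, of 4 serotonin receptor genes none was called, and of 5 dopamine and adrenergic receptor genes 1 was lower. Chrna4, a nicotinic subunit, had 55.6 CPM in L5 IT_1, against 17.4 CPM in all other IT, but none of the 9 later L5 IT_1 cells held a read of it. Of 14 neuropeptide receptor genes 2 were higher (Sstr2 and Hcrtr1) and 5 lower (Oprk1, Rxfp1, Npy5r, Npy1r and Oprd1).

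The cadherin genes called against all other IT were lower. Of 20 cadherin and protocadherin genes none was higher than in all other IT and 8 were lower (Pcdh20, Cdh22, Cdh9, Cdh13, Cdh8, Pcdh8, Cdh12 and Cdh7), where 5.80% and 7.44% of all genes were. Pcdh20 had 0.261 CPM in L5 IT_1 (4 of 61 cells), against 32.6 CPM in all other IT. At least Pcdh20 and Cdh9 were under 10 CPM in L5 IT_1 and passed the filter through all other IT alone, which fixed their direction. Cdh13 was lower over all cells (-2.34) and within the later period (-5.41), and its ratio was 0.26 in the earlier period. Against other L5 IT, 4 of 18 cadherins were higher and 3 lower, where 21.3% and 13.7% of all genes were. Of 33 axon guidance genes 2 were higher and 4 lower, among them Robo3 and Robo1. Robo3, at 5.22 CPM in L5 IT_1, passed the filter through all other IT alone. Of 8 secreted synaptic organizers 3 were lower (Cbln4, Cbln2 and C1ql3), with Cbln4 read in 3 of 61 L5 IT_1 cells and 42 of 192 others.

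Rprm, a gene known from layer 6 corticothalamic cells and taken here from that list, had 52.8 CPM in L5 IT_1, against 2.25 CPM in all other IT, a ratio of 4.05. It was read in 27 of 61 L5 IT_1 cells (0 to 501 CPM, median 0) and 18 of 192 others, and was at 112 CPM in later L5 IT_1 cells and 39.6 CPM in earlier ones. None of the 48 ET cells held a read of Rprm. Of 15 immediate early genes 1 was lower than in all other IT. Of 10 heat shock genes none was called, and of 8 mitochondrially encoded genes none was. Of all genes 5.80% were higher than in all other IT and 7.44% lower.

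Although Fezf2 is known from ET cells, most other genes of the ET list were lower in L5 IT_1 than in ET cells. Slc30a3, a zinc transporter gene of IT cells, had 188 CPM in L5 IT_1, with a read in 58 of 61 cells, against 4.95 CPM in L5 ET, with a read in 10 of 48. Bcl11b, the transcription factor CTIP2 of subcerebral neurons, had 2.33 CPM in L5 IT_1, against 101 CPM in L5 ET. Fezf2 was at 112 CPM in L5 IT_1 and 321 CPM in L5 ET. Of 8 compared ET genes 1 was higher in L5 IT_1 and 7 lower, where 10.7% and 12.4% of all genes were. Only 3 genes of the list reached 10 CPM in L5 IT_1. The other compared ones passed the filter through L5 ET alone, which fixed their direction. Thinned cells with a read of both Fezf2 and Bcl11b numbered 5 of 59 in L5 IT_1 and 39 of 44 in L5 ET. Sulf2, at 131 CPM in L5 IT_1 and 130 CPM in L5 ET, and Tmsb10, at 167 and 161 CPM, were alike in both, whereas Deptor was at 190 CPM in L5 IT_1 and 7.36 CPM in L5 ET.

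Intronic reads, which come from unspliced RNA, gave a second reading of the same cells. They made up a median of 51.9% of the exonic and intronic reads of an L5 IT_1 cell (quartiles 26.6% and 59.9%), against 47.7% in all other IT. In intronic counts 9.68% of genes were higher than in all other IT and 9.92% lower. Of the 10 leading higher genes, 7 reached 10 intronic CPM in either group, and all 7 had an intronic ratio above 0, 6 of them above 1. Of the 10 lower genes 9 had the same direction, 8 of them beyond -1. The exception was Lamp5, with an exonic ratio of -3.10 and an intronic ratio of 0.51. Deptor (2.27), Sulf2 (2.45) and Il1rapl2 (3.00) had intronic ratios like their exonic ones, and Myl4 had 0.06. The t-types were assigned from exonic and intronic reads together, so the intronic values are not independent of the labels.

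**Figure D4:**
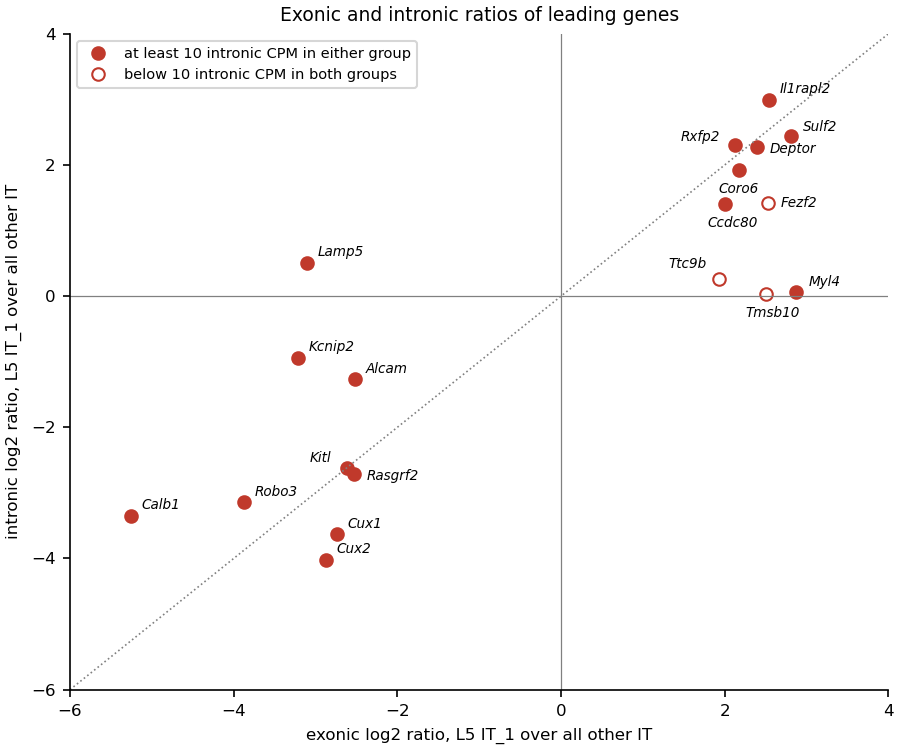
Exonic (horizontal) against intronic (vertical) log2 ratio of CPM + 1, L5 IT_1 over all other IT cells, for the 10 leading higher genes and 9 of the lower ones. Filled points reached 10 intronic CPM in either group and the dotted line marks equal ratios. All filled points except Lamp5 have the same sign on both axes, and Myl4 lies near 0 on the intronic axis.

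L5 IT_1 cells differed widely from one another gene by gene. Of 4601 genes with at least 50 CPM over the type, 57 had a read in every one of the 59 thinned cells and 264 in at least 95% of them, whereas 2190 genes (47.6%) were read in 25% to 75% of cells. The widest spread between quartiles of log2(CPM + 1) belonged to Xist, the noncoding RNA of the inactive X chromosome, which was read in 31 of 59 cells. The mice were of both sexes. The next were Ddx1, Frmd4a, Sgk1, Rnf227, Nxf1, Sccpdh, Grm2, Gaa and Tmem25, each read in 38 to 43 of 59 cells. Among the type markers the quartile range was 5.06 for Fezf2, 4.55 for Etv1, 2.57 for Sulf2, 2.16 for Deptor and 1.49 for Slc17a7. The range was thus narrowest for Slc17a7 and wider for Fezf2 and Etv1 than for Deptor and Sulf2. With single cells of unequal depth and no replicate of a cell, technical spread and differences between cells cannot be told apart.

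Many genes differed between the recording periods within the type. Between later and earlier L5 IT_1 cells, 2179 of 11322 genes (19.2%) were higher and 3055 (27%) lower, with 9 later cells of which 3 held 59% of the reads. The same contrast called 12.5% higher and 16.1% lower in L2/3 IT, 14.6% and 16.5% in L4/5 IT, and 31.5% and 27.9% in the 16 other L5 IT cells. The later L5 IT_1 cells had a median intronic share of 14.1% and 4916 genes after thinning, against 52.4% and 8118.5 genes in the earlier ones, and the part of either in the difference was not tested. Fezf2 was at 35.6 CPM in later cells and 129 CPM in earlier ones, Il1rapl2 at 12.4 and 65.5 CPM, Tmsb10 at 23.3 and 199.5 CPM. Sulf2, at 126 CPM in later cells and 132 CPM in earlier ones, Deptor, at 137 and 202 CPM, and Etv1, at 171 and 124 CPM, were closer.

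The largest ratios between periods belonged to other genes. Zfp322a, a zinc finger gene, had 240 CPM in later cells and 12.9 CPM in earlier ones (4.12), Phf10, a subunit of a chromatin remodelling complex, 121 and 7.4 CPM (3.86), and Zfp280d, another zinc finger gene, 274 and 32.8 CPM (3.02). Zfp322a went the other way in L2/3 IT, with 5.67 CPM later and 31.8 CPM earlier. Selenop, which encodes a selenium carrier, Chrna4 and Lrrtm2, a postsynaptic adhesion protein, had no read in the 9 later cells and 143, 68 and 60.2 CPM in the earlier ones. In L4/5 IT, Selenop was at 156 CPM later and 90.7 CPM earlier, so its absence was not seen in that group.

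**Figure D5:**
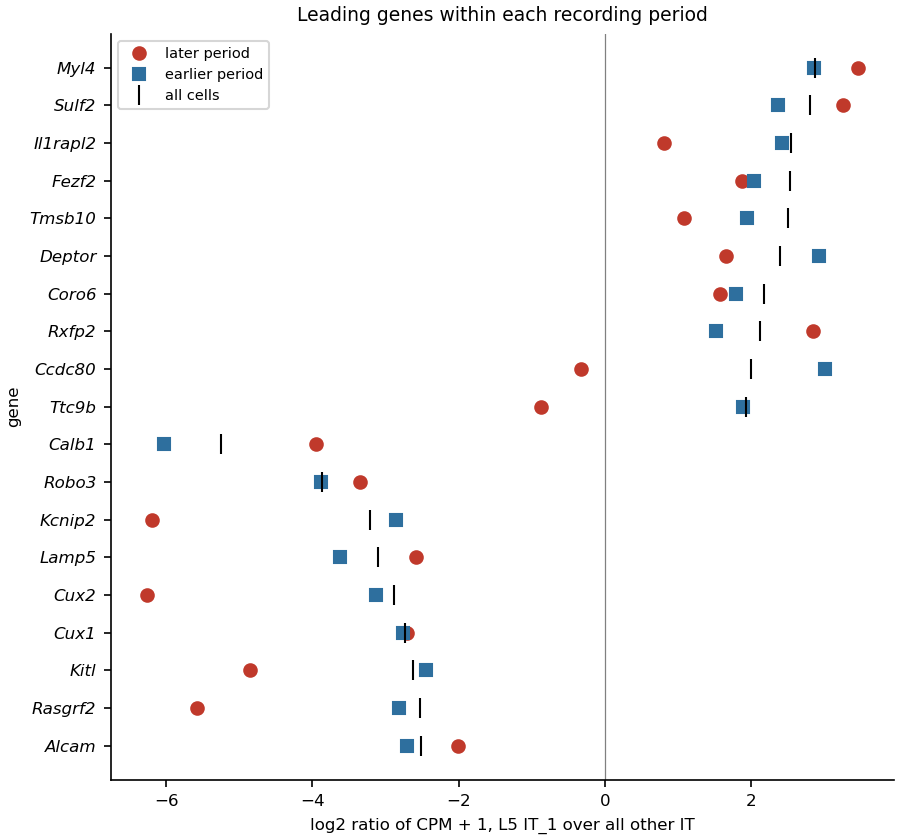
Log2 ratio of CPM + 1, L5 IT_1 over all other IT cells, for the 10 leading higher genes and 9 of the lower ones in the later period (circles), in the earlier period (squares) and over all cells (ticks). All 9 lower genes drawn stay below 0 in both periods. Of the 10 higher genes, Ccdc80 and Ttc9b lie below 0 in the later period (-0.33 and -0.87). All other IT holds 35 L6 IT cells in the later period and none in the earlier one.

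RNA of other cell types was present in L5 IT_1 cells, in amounts that differed widely from cell to cell. The GABAergic list summed to 98 CPM in L5 IT_1 (single cells 0 to 4334, median 1.23), against 49.9 CPM in all other IT (0 to 2328, median 2.59). Of 5 compared GABAergic genes Vip, Sst and Pvalb were called higher, and 91.2%, 64.8% and 82.3% of their L5 IT_1 reads came from 1 cell each. For this and the next lists, 5.80% of all genes were higher than in all other IT and 7.44% lower. The microglia list summed to 1035 CPM in L5 IT_1, with up to 9224 CPM in 1 cell, against 885 CPM in all other IT, and none of 8 genes was called. The oligodendrocyte list summed to 861 CPM in L5 IT_1 (single cells 8.97 to 6188, median 559), against 681 CPM in all other IT (0 to 24119, median 306), and none of 4 genes was called. The astrocyte list summed to 240 CPM against 174 CPM, with 1 gene higher and 1 lower of 5. No endothelial or mural gene reached 10 CPM in L5 IT_1. The part of this RNA in the other results was not tested.

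Of a follow-up at 34 °C, recorded later and with blockers of synaptic transmission, 29 cells carry the same label. Summed levels in L5 IT_1 at 25 °C, beside those at 34 °C, were 112 and 127 CPM for Fezf2, 133 and 170 CPM for Etv1, 190 and 262 CPM for Deptor, 131 and 104 CPM for Sulf2 and 5.27 and 12.6 CPM for Calb1.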

How the data were processed

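The authors aligned 75-bp single-end Smart-seq2 reads to mm10, assigned them to exons and introns of Gencode M23 genes with zUMIs, and deposited whole-number counts. There are no molecular identifiers, and PCR copies of a molecule each add to its count. The submitters' processing notes name STAR 2.5.4b and bcl2fastq 2.20. Of 1329 columns in the exonic table, 9 match no sample and were not used. The 85 spike-in rows, 2.87% of the exonic counts of L5 IT_1 cells, were left out of all totals. CPM come from counts added up within a group, so that deep cells weigh more. Each sample is 1 aspirated cell, so no doublet caller was run. The members, the 38 gene lists and the settings were chosen with earlier results of these data known. Named genes are the 3 markers, the 10 largest ratios in each direction per comparison under the conditions in the text, list members, the 10 widest quartile ranges and the 10 largest ratios in each direction between periods, and the text gives a selection, with some items not reported here. Of 477 list genes, 471 were found, and the others were not analysed here. The work was done in Python 3.11.15 with pandas 2.3.3, matplotlib 3.10.9, numpy 2.4.6 and scipy 1.17.1. The calculations were tested on simulated data. The alternatives tried were other pseudocounts, filters and scalings, intronic counts, single periods, shared days and fewer cells.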

Additional observations from a re-analysis of the deposited data

How the results depend on the processing

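Of 129 ratios of named genes, 95 kept their direction in every setting that gave a value. Over all settings 1714 of 1758 values had the same direction, 11 were reversed and 145 fell under 1. The settings without the filter on low levels and with at least 50 CPM leave the ratio of a gene unchanged. Their 119 values each could not differ and are included in these totals. Most of the genes were named for large ratios in the same cells, so the kept directions are no independent support. Reversed against all other IT were Chrna4 (-0.64), Lamp5 (0.51) and Neurod6 (-0.18) with intronic counts, Cdh13 (0.26) in the earlier period, Ccdc80 (-0.33), Chrna4 (-4.03, where L5 IT_1 had no read), Ttc9b (-0.87) and Unc5a (-0.13) in the later period, and Grik3 (-0.66) on days with both groups. Against L6 IT, Slc17a7 was at 0.013 with intronic counts and 0.67 on the 1 shared day. The cause was not tested.

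The counts of called genes depend on the settings. Without the filter on low levels they were 3786 against all other IT, 5180 against L2/3 IT, 5003 against L4/5 IT, 7739 against other L5 IT and 6200 against L6 IT, compared with 1486, 2244, 2167, 3937 and 2643 with it. With at least 50 CPM they were 338, 709, 560, 1421 and 843 in the same order. With a pseudocount of 5 CPM the count against all other IT was 922. In the later period alone the counts were 4696 against all other IT, 5716 against L2/3 IT, 5188 against L4/5 IT and 5128 against L6 IT, and on days with both groups 2413, 4720, 3449 and 4857. Both settings hold fewer cells. The earlier cells gave no value against L6 IT. The labels give no replicate numbers, and the only pairing was by recording day, as in the setting on days with both groups. Leaving out the 3 deepest L5 IT_1 cells was chosen after seeing the data.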
